A study of Mus musculus with 6 samples.

Results

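Lysine breakdown in mouse liver was followed through 6 genes, Aass, Aldh7a1, Aadat, Dhtkd1, Gcdh and Sugct, taken by name from the 41096 rows of the count table that carry a gene name. All 6 had a single row under their symbol, and all 6 were among the 12468 genes with enough counts to be tested. Sugct was selected on its counts in these same libraries, where it differed between exposed and control livers. The other 5 were added for their place in the pathway, also with results known. Differences of these 6 genes between exposed and control livers are therefore given as a description, with no test.

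The libraries were made from polyadenylated RNA of mouse liver. The 3 control livers had no DEHP, di(2-ethylhexyl) phthalate, a plasticizer, and the 3 exposed livers had it, under columns headed High. Dose, duration, strain, age and sex are not stated in the labels, which also do not say that each library came from its own animal, so the spread between libraries may be partly technical. The series' design text describes another assay in a human cell line and was not used for grouping. Bulk liver RNA cannot tell fewer cells of a type from less RNA per cell.

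Lysine is broken down mainly in the mitochondria of liver and kidney. Aass, the bifunctional alpha-aminoadipic semialdehyde synthase, joins lysine to 2-oxoglutarate as saccharopine and then splits saccharopine. Aldh7a1 oxidises the resulting semialdehyde to 2-aminoadipate, Aadat removes its amino group to give 2-oxoadipate, and Dhtkd1 is the dehydrogenase component that turns 2-oxoadipate into glutaryl-CoA. Gcdh, glutaryl-CoA dehydrogenase, passes glutaryl-CoA on to crotonyl-CoA. Sugct moves CoA from succinyl-CoA to free glutarate and so returns glutarate to the pathway, and its loss in people gives glutaric aciduria type III, while loss of Gcdh gives type I.

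The region before the start of Sugct is shown because this gene differed most between the groups, and that of Aass because it came next. Each is the 250 bases before the RefSeq start on GRCm38.p6, 5′ to 3′ on the gene's own strand, at chr13:17694766-17695015 (minus strand) for Sugct and chr6:23132987-23133236 (minus strand) for Aass. Capitals mark every match, on either strand, to the letters AGGTCA (the core hexamer bound by many nuclear receptors), GGGCGG (the GC box), CCAAT or TATAAA, and no 2 matches overlap in these regions.
Sugct: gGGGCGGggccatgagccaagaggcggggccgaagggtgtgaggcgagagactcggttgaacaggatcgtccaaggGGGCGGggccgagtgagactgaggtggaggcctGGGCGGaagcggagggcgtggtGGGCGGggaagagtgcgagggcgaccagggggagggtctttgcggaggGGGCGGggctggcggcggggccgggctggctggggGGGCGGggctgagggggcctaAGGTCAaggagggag
Aass: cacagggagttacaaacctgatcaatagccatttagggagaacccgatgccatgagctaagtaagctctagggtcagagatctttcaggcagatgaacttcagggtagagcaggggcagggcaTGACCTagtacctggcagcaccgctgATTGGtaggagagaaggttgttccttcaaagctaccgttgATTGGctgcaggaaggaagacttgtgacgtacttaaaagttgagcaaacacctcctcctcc

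The Sugct region is 74.0% G and C with 20 CpG, against medians of 52.4% and 6 over 32851 RefSeq promoters of the same length. Fewer CpG than in Sugct were found in 82.05% of these promoters. It holds 6 GC boxes and no CCAAT or TATAAA, and 0.886% of all promoters hold at least 6 GC boxes. Aass has 4 CpG, 2 CCAAT matches and no GC box. Both hold 1 AGGTCA, 10 to 15 bases before the start in Sugct and 122 to 127 bases before it in Aass. Of all promoters, 14.0% hold AGGTCA, 32.7% hold GGGCGG, 33.9% hold CCAAT and 12.4% hold TATAAA. The regions of Aadat, Dhtkd1 and Gcdh hold no AGGTCA, and none of the 5 regions matched here holds a direct repeat of AGGTCA with 1 or 4 bases between the copies, which 0.03% and 0.02% of promoters hold. A match describes these letters only.

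Sugct, the glutarate-CoA transferase, read 26.1, 30.3 and 29.8 CPM in control replicates 1 to 3 and 81.1, 94.7 and 72.9 CPM in exposed replicates 1 to 3 (CPM, the counts scaled to a common library size by the trimmed mean of M values, TMM). These values rest on 336 to 384 counts in control libraries and 801 to 1086 in exposed ones. The lowest exposed library lay far above the highest control, and the 3 controls lay close together. Means were 28.7 ± 2.31 and 82.9 ± 11.03 CPM (SD, n = 3). On the log2 scale the edgeR estimate was 1.53 ± 0.19 (SE), a 2.89-fold higher level. Within groups the Sugct libraries spread by 0.158 (pooled SD of log2 CPM). The median of that SD was 0.208 over the 6 genes and 0.332 over all genes tested. A small spread favours the call that put Sugct forward, so nothing is read from it.

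Aass, which opens the pathway, read 177, 245 and 372 CPM in control replicates 1 to 3 and 348, 522 and 443 CPM in exposed replicates. Control replicate 3 lay above the lowest exposed library, so the groups overlapped. Means were 265 ± 99.0 and 438 ± 87.0 CPM (SD, n = 3), a log2 difference of 0.73 ± 0.26 (SE). Without control replicate 3 the Aass difference was 1.08, and with that library as the only control 0.25. Leaving out any other single library gave 0.51 (control replicate 1) to 0.89 (DEHP replicate 1). The size of the difference thus varied with the libraries kept, most with control replicate 3. Aldh7a1, the semialdehyde dehydrogenase of the next step, read 564, 556 and 641 CPM in controls and 527, 550 and 633 CPM in exposed livers. Its groups covered nearly the same range. The log2 difference was -0.04 ± 0.19 (SE), and its sign turned without control replicate 3 (0.05) and without DEHP replicate 1 (0.03).

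Aadat, the aminotransferase shared with the kynurenine pathway, read 70.3, 75.5 and 92.8 CPM in controls and 86.1, 160 and 122 CPM in exposed livers. Only DEHP replicate 1 fell within the control range, and the exposed libraries differed among themselves more than the controls did (SD 37.0 and 11.8 CPM, n = 3). The log2 difference was 0.63 ± 0.23 (SE). It was smallest, 0.40, when DEHP replicate 2 was left out and largest, 0.85, when DEHP replicate 1 was. Dhtkd1 read 45.9, 42.0 and 59.9 CPM in controls and 50.4, 63.7 and 62.6 CPM in exposed livers. Control replicate 3 again stood highest among the controls and within the exposed range. The log2 difference of Dhtkd1 was 0.26 ± 0.20 (SE), and -0.01 when control replicate 3 was the only control.

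Gcdh, the glutaryl-CoA dehydrogenase, read 563, 657 and 763 CPM in controls and 788, 834 and 960 CPM in exposed livers. Every exposed library was above every control, but the gap between the nearest libraries (763 and 788 CPM) was small beside the spread within either group (SD 99.7 and 89.0 CPM, n = 3). The log2 difference was 0.38 ± 0.20 (SE), and it fell to 0.19 with control replicate 3 as the only control.

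**Figure D1:**
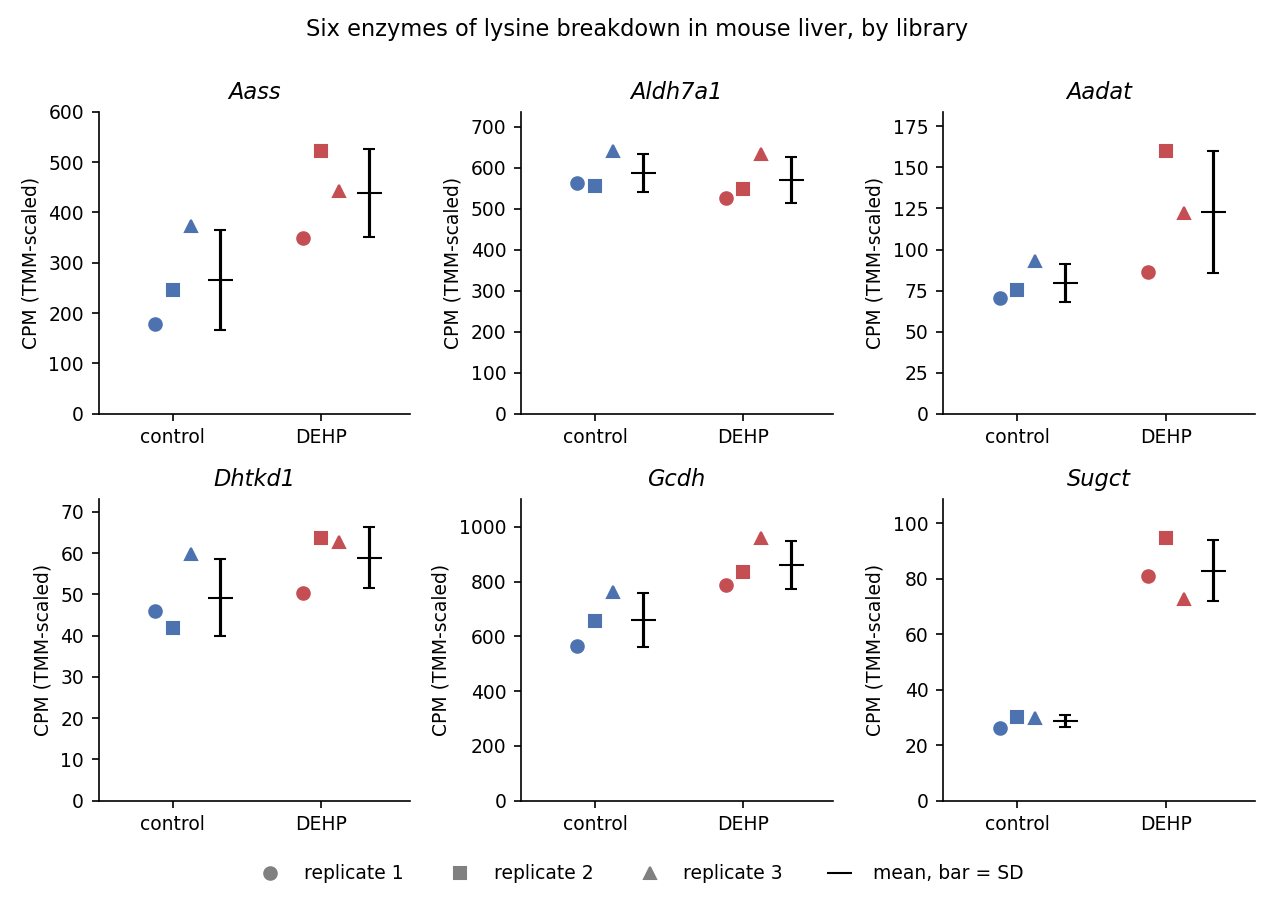
Level of each enzyme in CPM (y axis, from 0) in the 3 control and 3 DEHP libraries (x axis), in route order from Aass to Sugct; symbols are replicates, and the horizontal mark with its bar is mean ± SD. Sugct shows the widest gap between groups (controls up to 30.3 CPM, exposed from 72.9 CPM), while Aldh7a1 covers the same range in both.

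Of the 6 genes, 1 (Sugct) passed an adjusted p of 0.05 in edgeR's quasi-likelihood test with Benjamini-Hochberg adjustment over all genes, where 0.0722% of all genes tested passed. That call is what put Sugct forward, so nothing is read from the count. Sugct and Gcdh were the 2 genes with all exposed libraries above all controls, a pattern held by 9.17% of genes tested, and 8.57% had all exposed libraries below. The median log2 difference over the 6 was 0.50, with 5 positive, beside -0.03 over all 12468 genes, of which 47.1% were positive. Over the 5 genes other than Sugct the median was 0.38.

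Compared per length (CPM per kilobase of the gene length in the deposited table), Gcdh was the most abundant of the 6 in control livers at 244 ± 36.8, followed by Aldh7a1 (113 ± 9.07), Aass (69.4 ± 25.9), Aadat (44.7 ± 6.60), Sugct (21.9 ± 1.76) and Dhtkd1 (8.42 ± 1.61, all SD, n = 3). In controls, Aass and Aadat were the only neighbours in this order whose libraries overlapped. In exposed livers Gcdh stood at 318 ± 32.8 and Dhtkd1 at 10.1 ± 1.26, again highest and lowest. Sugct stood at 63.2 ± 8.42, where its libraries overlapped those of Aadat (69.0 ± 20.8). Aass (115 ± 22.8) and Aldh7a1 (110 ± 10.8) overlapped as well.

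**Figure D2:**
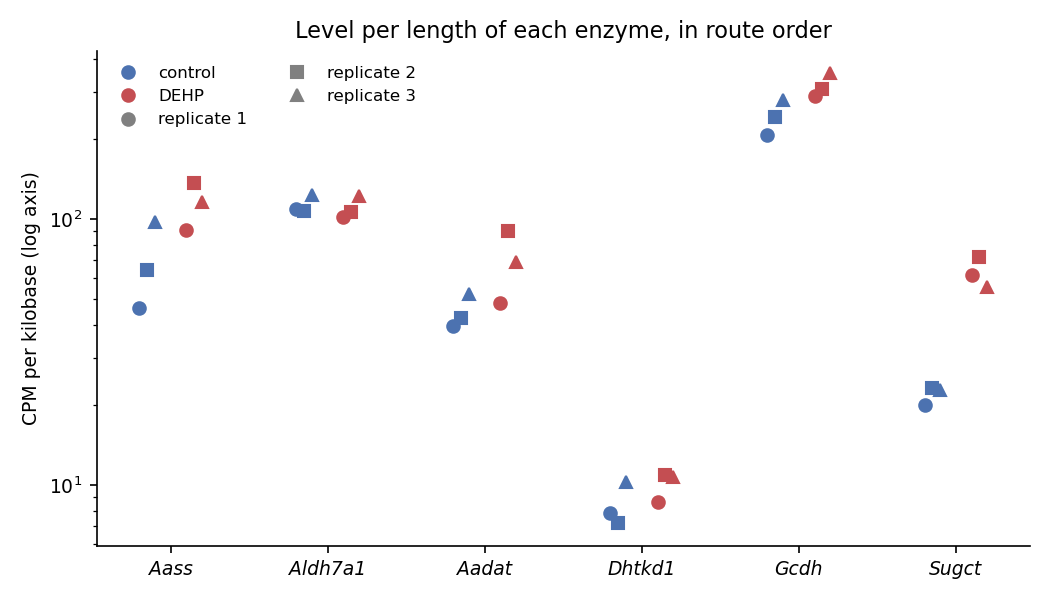
CPM per kilobase of gene length (log y axis) for each enzyme in route order; each symbol is 1 library, blue for control and red for DEHP. Sugct lies between 19.9 and 23.1 in controls, below every Aadat library, and between 55.6 and 72.3 in exposed livers, within the Aadat range.

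A ratio of 2 genes within a library does not depend on how libraries are scaled. Sugct counts came to 1.84%, 1.93% and 1.54% of the summed counts of the other 5 enzymes in control replicates 1 to 3, and to 4.51%, 4.45% and 3.28% in exposed replicates. All exposed libraries lay above all controls, with means of 1.77 ± 0.1999% and 4.08 ± 0.691% (SD, n = 3), a difference of 1.20 on the log2 scale. Taken against each enzyme, the log2 ratio of Sugct was higher in every exposed library than in any control, by 1.57 against Aldh7a1, 1.26 against Dhtkd1, 1.14 against Gcdh, 0.93 against Aadat and 0.75 against Aass. The separation was narrowest against Aass, where the highest control was at -2.77 and the lowest exposed library at -2.60. Sugct was chosen for its difference between these libraries, which favours such a separation in advance, so nothing is read from it. No share of separated ratios over all genes was computed.

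The table's own annotation gives Sugct the Pfam domain of CoA-transferase family III, and 1 other row carries that domain, Amacr, the racemase of branched-chain acyl-CoA and bile acid intermediates. Amacr read 100, 117 and 119 CPM in controls and 111, 136 and 118 CPM in exposed livers. The groups overlapped, and Amacr did not pass (log2 fold change 0.12 ± 0.19, SE, edgeR adjusted p = 0.829). The log2 ratio of Sugct to Amacr counts was at most -1.94 in controls and at least -0.69 in exposed livers. The choice of Sugct favours this separation as well, so nothing is read from it.

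**Figure D3:**
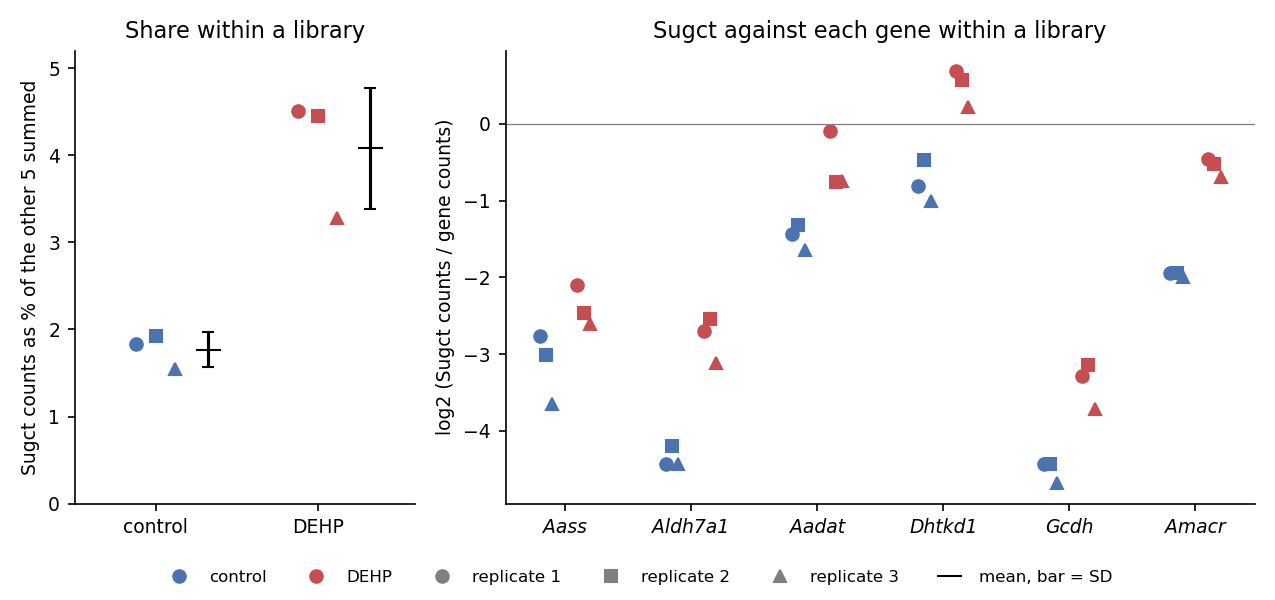
Left, Sugct counts as a percentage of the summed counts of the other 5 enzymes in each library (bars are mean ± SD); right, log2 of Sugct counts over those of each enzyme and of Amacr. The exposed libraries (red) lie above the controls (blue) in every comparison, from 3.28% against at most 1.93% on the left. Sugct was chosen for its difference between the groups, which favours this separation.

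By the table's own coordinates, with C57BL/6NJ strain identifiers, Sugct covers 863996 bases of chromosome 13, from 14607823 to 15471818 on the minus strand, for a gene length of 1311 bases. All 6 are annotated as protein-coding. Aass covers chromosome 6 from 21234359 to 21298868, Gcdh chromosome 8 from 89094663 to 89102166, Dhtkd1 chromosome 2 from 3107645 to 3165001, all on the minus strand, and Aadat chromosome 8 from 62694548 to 62743370 on the plus strand. Aldh7a1 lies on chromosome 18 from 57645397 to 57711599 on the minus strand.

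The next gene beyond the start of Sugct is Mplkip, which encodes a protein tied to a form of trichothiodystrophy, 1844 bases away on the opposite strand in the table and 648 bases start to start in RefSeq on GRCm38.p6. Mplkip read 10.6, 9.56 and 10.7 CPM in controls and 12.3, 12.8 and 18.6 CPM in exposed livers. All exposed libraries were above all controls, a pattern held by 9.17% of genes tested. Mplkip did not pass (0.50 ± 0.26, SE, edgeR adjusted p = 0.427). On the other side the nearest gene was Gm22628, a small nuclear RNA, 865785 bases away with 0 counts. The 2 small RNA genes inside Sugct, Gm25020 and Gm26098, held at most 3 counts in a library.

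Whether counting used strand is not stated, so genes that overlap a member on the opposite strand could share its reads. Gcdh shares 1843 bases with Syce2, which encodes a synaptonemal complex protein and held 88 to 204 counts against 7784 to 11301 for Gcdh. Aldh7a1 shares 10188 bases with Phax, an adaptor of small nuclear RNA export, with 282 to 602 counts against 5208 to 7961. Dhtkd1 shares 3902 bases with the antisense gene Gm13267, which held at most 4 counts. Syce2, Phax and the other neighbours with enough counts to be tested did not pass. The rest held at most 15 counts in a library and were not tested. Farsa, a phenylalanyl-tRNA synthetase subunit next to Gcdh, was lower in every exposed library than in any control, as were 8.57% of genes tested. Its log2 fold change was -0.42 ± 0.21 (SE, edgeR adjusted p = 0.410), the opposite direction to Gcdh.

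Genes that adjoin the route were taken from 8 lists, chosen with earlier results of these data known. They hold 47 genes, of which 42 were tested. Slc7a1, Slc7a6, Slc25a2 and Ogdhl fell below the count filter, and Tmlhe had no row under its symbol. None of the 42 passed over all genes (edgeR, with 7 reaching an unadjusted p of 0.05 upwards and 1 downwards, as 6.11% and 6.97% of all genes did; with relative log expression scaling, RLE, 10 and 0). The upward count moved with the libraries kept. Leaving out DEHP replicate 1 gave 15 and control replicate 3 gave 14. Leaving out control replicate 1 or DEHP replicate 2 gave 3, DEHP replicate 3 gave 2 and control replicate 2 gave 6. The count also moved with processing, to 15 of 46 with no filter on low counts and 11 of 42 with a replicate block. The share of all genes at an unadjusted p of 0.05 was not computed for these runs, nor for RLE scaling. DESeq2 called 1 of 42, Tdo2, beside 261 of 12468 over all genes, and limma-voom called 0. With no filter on low counts edgeR called 2 of 46, Tdo2 and Acmsd, beside 496 of 20576 over all genes. Without control replicate 3 edgeR called 2 of 43, Tdo2 and Etfdh, beside 400 of 12890 over all genes. All these adjoining calls were higher in exposed livers. The median log2 difference over the 42 was 0.29, with 33 positive, beside -0.03 and 47.1% over all genes tested. Of the 42, 5 had all exposed libraries above all controls and 2 below, patterns held by 9.17% and 8.57% of all genes. The same shares stand beside the counts of each list below.

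The kynurenine route breaks tryptophan down to 2-oxoadipate and so joins lysine breakdown after Aadat, at the substrate of Dhtkd1. Of the 10 genes in its list, 0 passed over all genes and 8 were positive (edgeR, 4 higher at an unadjusted p of 0.05, median 0.43). Tdo2, the tryptophan dioxygenase that opens the route in liver, read 345, 633 and 848 CPM in controls and 1045, 1594 and 1192 CPM in exposed livers. No control reached the lowest exposed library, but the controls spread widely (log2 fold change 1.07 ± 0.30, SE, edgeR adjusted p = 0.1996). Haao, a dioxygenase further along, was level between groups at 664 ± 60.9 and 629 ± 62.6 CPM (SD, n = 3; -0.08 ± 0.19, SE, edgeR adjusted p = 0.899). Acmsd, which steers the route towards 2-oxoadipate, had a log2 fold change of 0.90 ± 0.39 (SE, edgeR adjusted p = 0.378), with DEHP replicate 1 at 21.6 CPM, below every control.

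Succinyl-CoA, the CoA donor of Sugct, is made and used by enzymes in the list of succinyl-CoA and acyl-CoA handling, whose 9 genes were all positive with 0 past the threshold over all genes (edgeR, 2 higher at an unadjusted p of 0.05; median 0.30). Suclg1, the shared subunit of succinyl-CoA ligase, read 182, 170 and 200 CPM in controls and 238, 307 and 305 CPM in exposed livers. The groups did not overlap, and the value did not pass (0.62 ± 0.19, SE, edgeR adjusted p = 0.218). Glyat, which joins acyl groups to glycine, was at 0.19 ± 0.19 (SE, edgeR adjusted p = 0.717).

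The dehydrogenase complex of Dhtkd1 shares its other subunits with the 2-oxoglutarate dehydrogenase complex. The 4 genes tested in that list were all positive and 0 passed (edgeR, 0 at an unadjusted p of 0.05; median 0.22). Ogdh, the 2-oxoglutarate dehydrogenase, had 0.20 ± 0.18, Dlst, the transferase subunit, 0.24 ± 0.20, and Dld, the lipoamide dehydrogenase, 0.30 ± 0.20 (SE, edgeR adjusted p = 0.690, 0.645 and 0.557). Ogdh was above every control in every exposed library, though narrowly, at 239 CPM in the highest control and 243 CPM in the lowest exposed library.

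Electrons from Gcdh pass to the electron transfer flavoprotein. Of the 3 genes of that list, Etfa, Etfb and Etfdh, 0 passed and 2 were positive (edgeR, 0 at unadjusted p below 0.05; median 0.41). Etfa, its alpha subunit, read 277, 257 and 317 CPM in controls and 339, 432 and 359 CPM in exposed livers, without overlap (0.41 ± 0.19, SE, edgeR adjusted p = 0.386). Etfb, its beta subunit, had the opposite sign, at -0.23 ± 0.24 (SE, edgeR adjusted p = 0.718). Etfdh, the oxidoreductase that takes electrons on to ubiquinone, had 0.49 ± 0.27 (adjusted p = 0.462), and passed once control replicate 3 was left out. Etfdh stood at 82.9, 109 and 184 CPM in control replicates 1 to 3. Of the 4 genes that take crotonyl-CoA to acetyl-CoA, 0 passed (edgeR, 1 higher at an unadjusted p of 0.05; median 0.45). Echs1, the enoyl-CoA hydratase, had 0.50 ± 0.21, Hsd17b10, a hydroxyacyl-CoA dehydrogenase, 0.50 ± 0.23, and Acat1, the acetoacetyl-CoA thiolase, -0.00 ± 0.22 (SE, edgeR adjusted p = 0.350, 0.384 and 0.997).

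In the remaining lists 0 genes passed. Slc7a2, a cationic amino acid transporter of liver, had 0.35 ± 0.23 and Slc25a15, a mitochondrial ornithine carrier that also takes lysine, 0.34 ± 0.24 (SE, edgeR adjusted p = 0.549 and 0.571), and 0 of 5 tested carriers passed (edgeR, 0 at an unadjusted p of 0.05; median 0.00). In the pipecolate and hydroxylysine arm 0 of 4 passed (edgeR, with 1, Crym, lower at unadjusted p below 0.05; median -0.16). Pipox, the peroxisomal pipecolate oxidase, had -0.12 ± 0.18, and Hykk, the hydroxylysine kinase, 0.35 ± 0.27 (SE, edgeR adjusted p = 0.823 and 0.622). Crym, the ketimine reductase of that arm, stood at 2.34, 2.29 and 3.28 CPM in controls and 1.62, 1.05 and 0.680 CPM in exposed livers, below all controls (-1.24 ± 0.58, SE, edgeR adjusted p = 0.382), on at most 37 counts a library. Of 3 tested genes of carnitine synthesis and uptake 0 passed (edgeR, 0 at an unadjusted p of 0.05; median 0.22), with Aldh9a1, which oxidises trimethylaminobutyraldehyde, at 0.50 ± 0.25 and Bbox1, the last step, at 0.21 ± 0.25 (SE, edgeR adjusted p = 0.419 and 0.761).

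**Figure D4:**
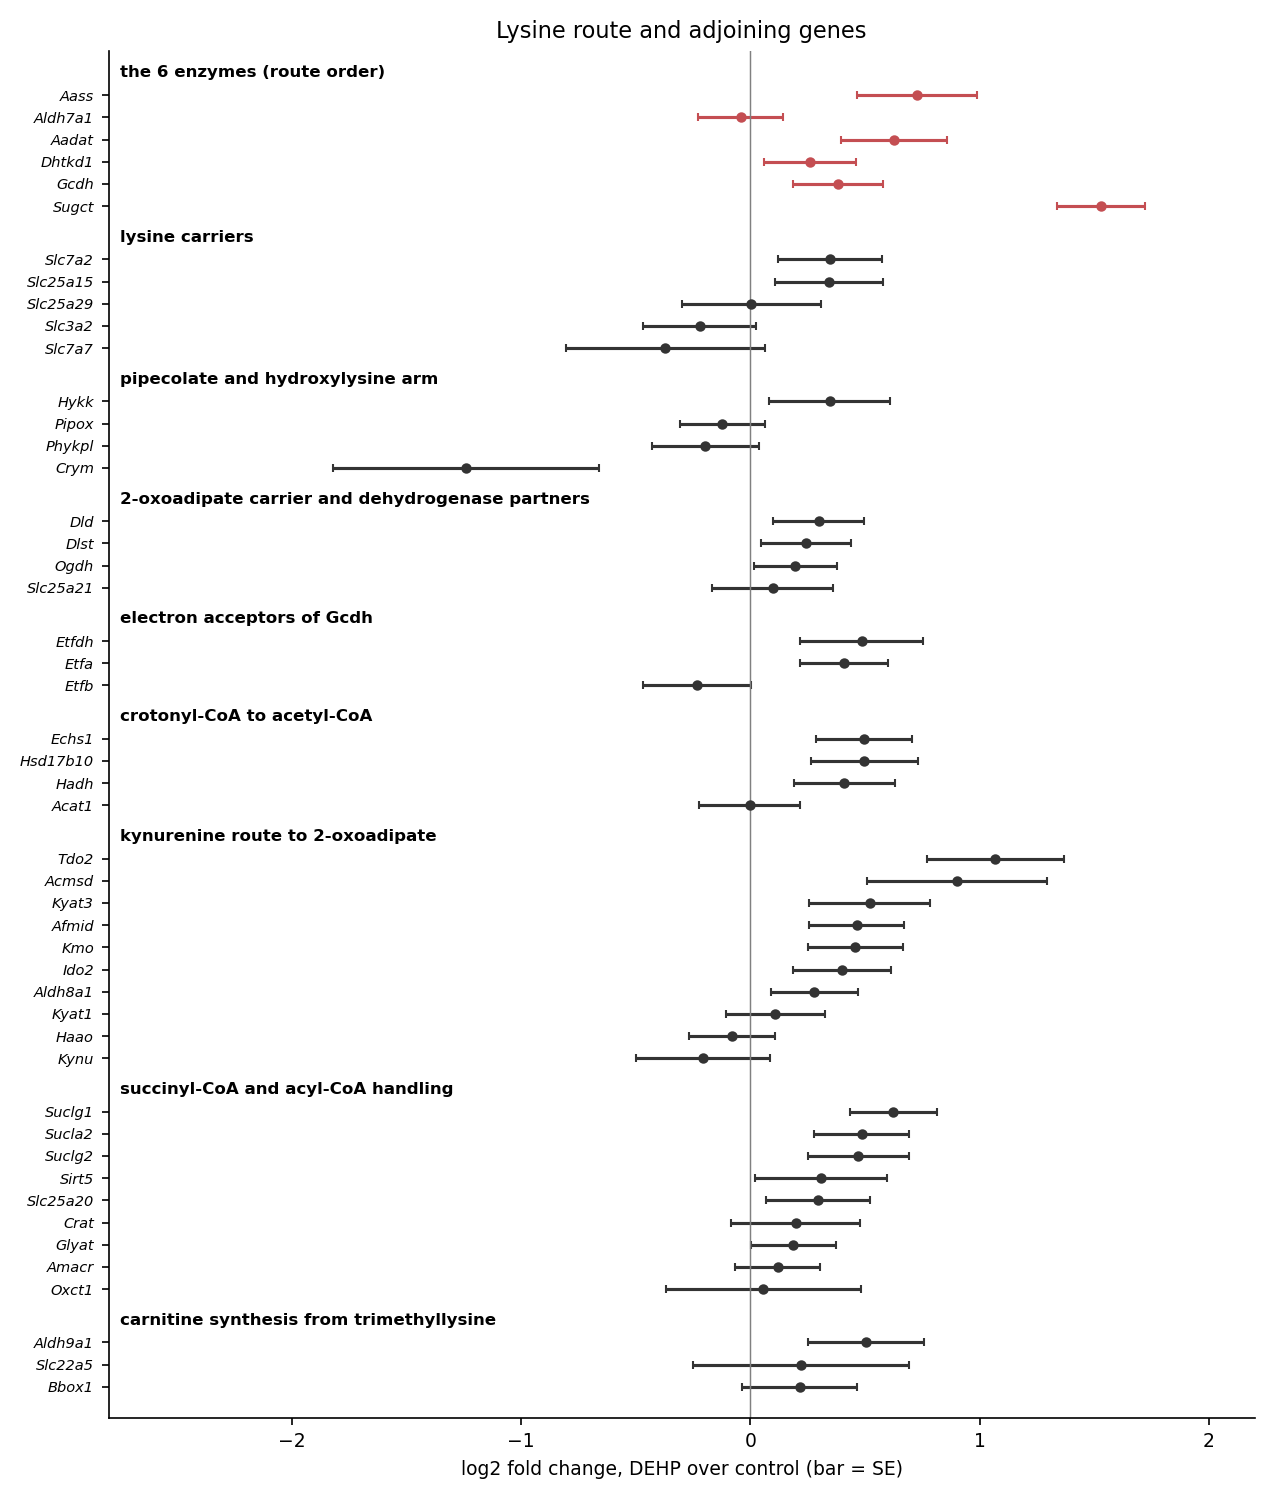
Log2 fold change of exposed over control (x axis, bars are SE) for the 6 enzymes in route order (red) and the 42 tested genes of 8 adjoining lists (black). Sugct lies at 1.53, beyond all others drawn, and 33 of the 42 adjoining genes lie to the right of 0, where 47.1% of all genes tested lie.

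The genes whose course over the 6 libraries was most like that of Sugct were found by the root mean square difference of log2 CPM, each centred on its own mean, among 8677 protein-coding genes with a symbol and a mean of at least 5 CPM. The closest was Bend3, a BEN domain protein of chromatin, at 0.213, followed by Bnip3, a mitophagy receptor, at 0.238, Sult1d1, a cytosolic sulfotransferase, at 0.245, Hsd17b11, a dehydrogenase found on lipid droplets, at 0.253, and Ces1d, a carboxylesterase, at 0.274. Bnip3 read 129, 161 and 150 CPM in controls and 303, 394 and 246 CPM in exposed livers, with DEHP replicate 2 highest and DEHP replicate 3 lowest among the exposed, as for Sugct. Among the exposed, Hsd17b11 was lowest in DEHP replicate 1 and Ces1d highest in DEHP replicate 3. These genes were chosen for likeness to a gene that differs between the groups. Neither their own difference nor an order of libraries shared with Sugct is therefore a result.

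The tissue label was checked against markers. Of 6 hepatocyte markers 4 had a row, and their summed level was 102739 to 143529 CPM in controls and 87582 to 117766 CPM in exposed livers. Of these 4, 1 was lower at an unadjusted p of 0.05 (edgeR), as 6.97% of all genes were, and 0 passed over all genes. Kidney tubule markers, from the other organ rich in these enzymes, had 0 of 5 genes tested, summed to at most 0.255 CPM in any library, and Slc5a2 was at 0 in all 6. Pancreatic acinar markers summed to 10.6 to 16.7 CPM in controls and 11.4 to 15.3 CPM in exposed livers, with Cpa1 and Pnlip at 0.

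At an unadjusted p of 0.05 (edgeR), 6.11% of all genes tested were higher and 6.97% lower. Of single genes, 9.17% had all exposed libraries above all controls and 8.57% below, and no such share was computed for sums. In every list of this paragraph 0 genes passed over all genes. The pericentral and stellate marker sums did not overlap between the groups. Pericentral hepatocyte markers summed to 8769 to 16148 CPM in controls and 22803 to 24996 CPM in exposed livers, with 7 of 9 higher at an unadjusted p of 0.05 and 0 past the threshold over all genes (edgeR), and the periportal sums overlapped (10936 to 18749 and 16472 to 18558 CPM; 2 of 8 higher). Stellate cell markers summed to 338 to 520 CPM in controls and 228 to 284 CPM in exposed livers, with 3 of 7 lower at an unadjusted p of 0.05. Sinusoidal endothelial sums overlapped (303 to 380 and 173 to 309 CPM; 3 of 7 lower), as did those of Kupffer cells (165 to 564 and 189 to 273 CPM; 2 of 8 lower), cholangiocytes (32.7 to 81.8 and 47.6 to 65.8 CPM; 0 of 5) and lymphocytes (8.95 to 18.6 and 10.1 to 23.7 CPM; 0 of 3 tested). The part of these cell types in the Sugct difference was not tested. Interferon-stimulated genes summed to 3424 and 2517 CPM in control replicates 1 and 2, and to 324 CPM in control replicate 3, inside the exposed range of 278 to 357 CPM, with all 8 tested lower at an unadjusted p of 0.05. Sugct was at 29.8 CPM in control replicate 3, between 26.1 and 30.3 in the other controls. With that 1 library as the only control its log2 difference was 1.49. The part of the interferon difference in that of Sugct was not tested.

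**Figure D5:**
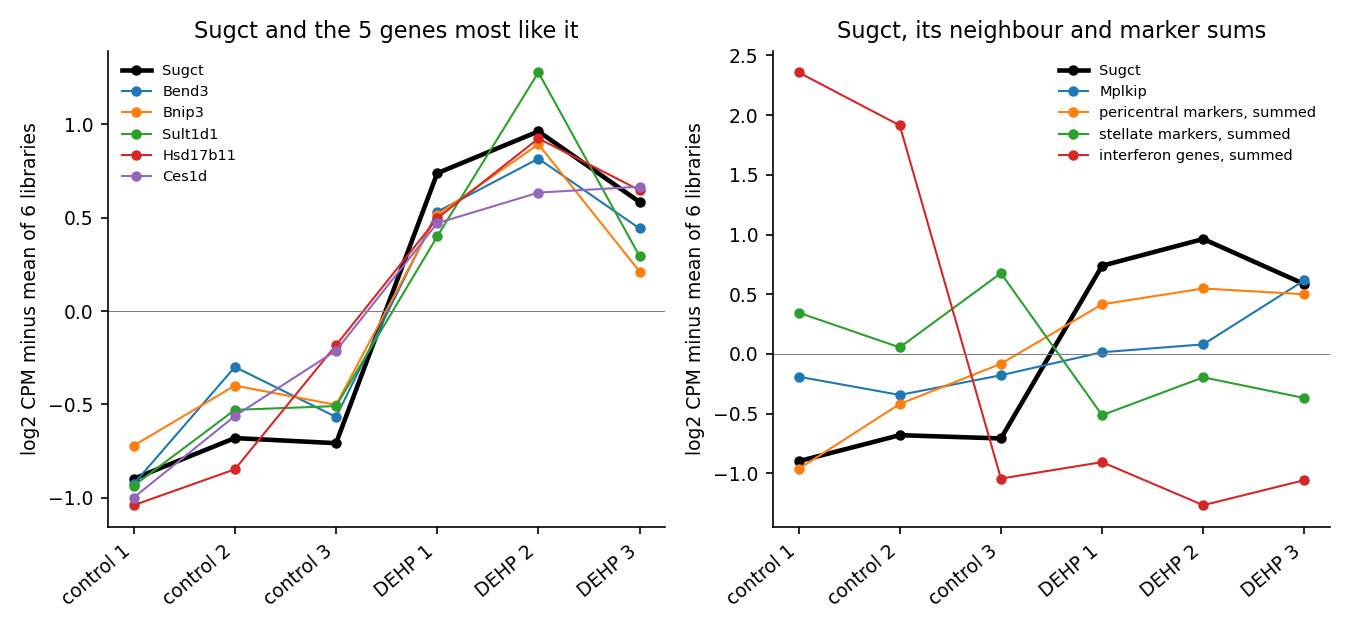
Log2 CPM of each gene or marker sum minus its mean over the 6 libraries (y axis) by library (x axis); lines join the values of 1 gene and give no order to the libraries. Left, Sugct with the 5 genes most like it. Right, Sugct with its neighbour Mplkip and 3 marker sums. The interferon sum is high in control replicates 1 and 2 alone, and Sugct is low in all 3 controls. The part of the marker sums in the Sugct difference was not tested.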

How the data were processed

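The authors deposited 1 table of whole-number counts per gene for the 6 libraries. Per the labels' protocols, the reads were paired-end and the library kit marks strand. The submitters' processing notes name GRCm38.p6. No aligner or counting program is named in the sources used here. Total counts were 10410098 to 14229803 a library. The 1284 rows without a gene name, 2.73% to 4.28% of counts, stayed out of library sizes and tests. The table's gene length, deposited without a stated method, served for levels per length.

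The test was that of edgeR 4.0.16, run under R 4.3.3 (filterByExpr with a minimum count of 10, TMM, robust quasi-likelihood test, two-sided, no covariate, Benjamini-Hochberg, threshold 0.05), a script checked on simulated counts. SE come from the F statistic; log2 CPM use a prior count of 2. Alternatives were DESeq2 1.42.0, limma-voom (limma 3.58.1), RLE scaling, a filter at mean 1 CPM or none, edgeR without robust estimation, unnamed loci kept, a replicate block, and leaving out each library; keeping control replicate 3 as the only control was added after the data were seen. No library duplicated another: within groups the chi-square of counts was 30.6 or more per degree of freedom.

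The 6 genes and all lists were chosen with earlier results of these data known. Named genes were the 6, list members past the threshold or else the 2 most abundant and the 1 with the smallest p of each list, neighbours, and the 5 genes most like Sugct. Amacr, Acmsd, Etfdh and genes named for falling below the filter were chosen after their values were seen. The RefSeq promoter table (GRCm38.p6) matched 5 of the 6.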

Additional observations from a re-analysis of the deposited data

How the results depend on the processing

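The log2 difference of Sugct kept its direction in every alternative run, from 1.43 to 1.62 with 1 library left out, and was 1.49 with control replicate 3 as the only control, where no gene passed. The within-library ratio stayed between 1.10 and 1.35 with 1 library left out, and was 1.39 there. Over the whole table edgeR called 9 of 12468 genes, and 496 of 20576 with no filter. DESeq2 called 261 of 12468 and limma-voom 2. With 1 library left out edgeR called 5 to 400, the highest without control replicate 3, where 12890 genes were tested. The cause was not tested. Higher calls among the adjoining genes numbered 2 with no filter, 1 with DESeq2 and 0 to 2 with 1 library left out. Aass also passed with no filter and without control replicate 3. Aldh7a1 ran from -0.123 to 0.0473 with 1 library left out, and Dhtkd1 was -0.0108 with control replicate 3 as the only control. With a replicate block 6 genes passed, Sugct at 1.52 among them, and 0 adjoining genes. Deviations of same-numbered libraries of the 2 groups correlated at only -0.02, 0.06 and -0.03. Those of libraries with different numbers correlated at -0.05 to 0.06. No pairing by number was seen, but correlations over 3 libraries a group cannot exclude one.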
